A study of Mus musculus with 2 samples.

Results

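Gene deserts are long stretches of the genome with no protein-coding gene start, and 21722 ATAC-seq peaks of mouse embryonic stem cells (mESCs) had their summit in one. A peak was counted here when its summit lay on chromosomes 1 to 19, in no gene of the GENCODE vM21 annotation of mm10, and more than 100 kb from the start of every protein_coding gene. These desert peaks were 19.1% of the 113777 peaks of those chromosomes and came from a list of 116782. ATAC-seq cuts accessible DNA with the Tn5 transposase, so a peak is a place where fragments pile up above the local background. The cells were EHMT2-dTAG-mcherry mESCs of a hybrid BL6/129 background, in which endogenous EHMT2, a histone H3K9 methyltransferase, carries an FKBP12 F36V degron, an HA tag and an mCherry reporter. They grew on feeder fibroblasts with LIF and serum and received DMSO for 24 h. No degrader was given, so EHMT2 was present. The 2 samples were independent clones of 50000 cells each, and their fragments were merged into 1 list. No value below has a replicate, so no comparison carries a test, and each difference describes this list.

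Distal accessible sites in deserts include enhancers that reach over long distances to developmental genes, CTCF sites that anchor chromatin loops, and the promoters of transposable elements. Deserts are rich in interspersed repeats, and young LINE-1 elements and endogenous retroviruses carry their own promoters with binding sites for transcription factors. In mESCs the pluripotency factors OCT4 and SOX2 bind many distal sites, often side by side. Peaks within 500 bp of the gene start were present for 5 of 6 mESC marker genes (Pou5f1, Sox2, Nanog, Zfp42 and Dppa5a, but not Esrrb), at fold enrichments of 2.83 to 15.9. Of 6 fibroblast markers, Thy1 and Prrx1 had one, at fold enrichments of 5.45 and 2.68, while Col1a1, Col1a2, Col3a1 and Twist2 had none.

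Strong desert peaks included both single-copy and repeated sequence, and examples of each are shown here as mm10 sequence, plus strand, 100 bases to each side of the summit. The first 4 are among the strongest peaks whose sequence occurs once in the genome. Capitals mark the POU octamer ATGCAAAT, bound by OCT4 and related factors, in the Bicd1 and Tmem161b peaks, and the AP-1 motif TGANTCA, bound by JUN and FOS proteins, in the Sox9 and Akr1e1 peaks.
Bicd1 desert, chr6:149565791-149565991: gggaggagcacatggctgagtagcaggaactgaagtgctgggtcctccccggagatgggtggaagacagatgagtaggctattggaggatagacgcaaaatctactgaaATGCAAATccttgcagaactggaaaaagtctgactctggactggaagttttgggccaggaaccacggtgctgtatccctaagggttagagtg
Sox9 desert, chr11:112501919-112502119: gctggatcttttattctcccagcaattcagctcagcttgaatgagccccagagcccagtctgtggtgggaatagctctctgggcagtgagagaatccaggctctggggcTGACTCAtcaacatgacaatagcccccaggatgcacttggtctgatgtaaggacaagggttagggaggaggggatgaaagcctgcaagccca
Akr1e1 desert, chr13:4771545-4771745: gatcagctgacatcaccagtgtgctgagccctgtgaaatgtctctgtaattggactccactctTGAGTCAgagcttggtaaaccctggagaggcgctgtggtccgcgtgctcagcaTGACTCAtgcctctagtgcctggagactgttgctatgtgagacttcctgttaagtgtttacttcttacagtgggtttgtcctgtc
Tmem161b desert, chr13:84348064-84348264: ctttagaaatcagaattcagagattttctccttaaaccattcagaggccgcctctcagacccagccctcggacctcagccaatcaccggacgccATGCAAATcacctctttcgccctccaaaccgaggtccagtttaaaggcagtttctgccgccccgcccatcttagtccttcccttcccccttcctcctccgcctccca

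The next 3 lines show sequence found at many places. They give the desert peaks of highest fold enrichment whose summit lies on 1 shared 32-base word, aligned on that word, all from the plus strand. Capitals mark the YY1 motif AAGATGGCG where it is present, here on the opposite strand as CGCCATCTT. YY1 is a zinc finger factor that binds promoters, transposon promoters included.
chr2:159656434-159656585: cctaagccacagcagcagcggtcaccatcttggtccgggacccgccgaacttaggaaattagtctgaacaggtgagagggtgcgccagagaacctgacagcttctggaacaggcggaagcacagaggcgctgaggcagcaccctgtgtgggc
chr16:64450433-64450584: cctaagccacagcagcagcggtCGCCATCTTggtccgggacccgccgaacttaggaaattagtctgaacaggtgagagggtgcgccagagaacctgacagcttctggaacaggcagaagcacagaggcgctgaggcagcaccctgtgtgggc
chr12:19627053-19627204: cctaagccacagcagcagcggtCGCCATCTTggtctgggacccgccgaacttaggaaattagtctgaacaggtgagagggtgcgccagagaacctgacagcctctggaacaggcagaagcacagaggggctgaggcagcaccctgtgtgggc

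The 3 copies were identical at 150, 147 and 149 of 152 bases in their 3 pairings, and the first lacked the YY1 motif. Their fold enrichments were 19.6, 14.7 and 12.0, with 82, 51 and 25 fragments over the summit. The shared word lies at the summit of 13 desert peaks on 11 chromosomes, of fold enrichment 2.81 to 19.6, and it has 5669 copies in mm10. A second word also lay at 13 summits and had 2647 copies. Each read that matched several copies equally was written by the aligner at 1 of them at random, so fragments over a copy cannot be told apart from those of its other copies.

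Most desert peaks were weak. Fold enrichment compares the fragments over the summit with those the local background gives, after adding 1 to both. Its median was 3.70 (quartiles 3.24 and 5.08, range 1.98 to 44.1). The median summit was covered by 7 fragments (quartiles 6 and 12), and 62.7% of desert peaks had 6 to 8. At 53.8% of them the local background stood at its lowest level of 1.16 fragments, where 6 fragments give a fold enrichment of 3.24. Far genic peaks, which are as far from a start but lie in a gene (14450 peaks), had the same medians of 3.70 and 7 fragments. Near intergenic peaks, in no gene and 1 to 100 kb from a start (27078 peaks), had medians of 3.81 and 9 fragments. Peaks within 500 bp of a protein_coding start (11159 promoter peaks) stood well above, with medians of 8.50 and 32 fragments.

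Strong peaks, those with a −log10 q of at least 10, made up 16.03% of desert peaks (3483; 95% Wilson interval 15.6 to 16.5%). The share was 21.8% over all peaks of chromosomes 1 to 19, 16.4% in near intergenic peaks, 14.5% in far genic peaks and 73.4% in promoter peaks.

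Desert peaks held more repeat sequence than the other classes. In the mm10 sequence, lower-case (soft-masked) letters mark repeats. They covered a median of 35.6% of a desert peak, against 19.7% of a near intergenic peak, 14.5% of a far genic peak and 6.18% of a promoter peak. The mean over desert peaks was 45.2%, and the bases of deserts as a whole were 38.4% soft-masked. Desert peaks were spread over both extremes: 10.8% were masked over their whole length (2338 peaks) and 8.32% had no masked base. Strong desert peaks had a median of 81.4%, against 23.6% in strong near intergenic peaks and 25.1% in strong far genic peaks. The median over all strong peaks on chromosomes 1 to 19 was 11.4%.

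Masking says that a sequence is a repeat but not that its copies are alike, so each summit with 150 bases to either side was also scored by how many of its 270 words of 32 bases occur once in mm10. A window was called single-copy at 90% or more and multicopy under 10%. Of desert peaks, 11661 (53.7%) were single-copy, 7134 (32.8%) mixed and 2927 (13.5%; interval 13.0 to 13.9%) multicopy. Multicopy windows were 6.44% of all peaks on chromosomes 1 to 19, 7.39% of near intergenic peaks, 7.20% of far genic peaks and 0.547% of promoter peaks. Among strong desert peaks the multicopy share was 40.9% (1425; interval 39.3 to 42.6%) and the single-copy share 28.4% (989), with the remaining 30.7% (1069) mixed. Strong near intergenic peaks showed the reverse order, with 16.9% multicopy and 59.5% single-copy. So did strong far genic peaks, with 26.8% and 53.3%. Over all strong peaks on chromosomes 1 to 19 the shares were 13.4% multicopy and 72.0% single-copy.

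**Figure D1:**
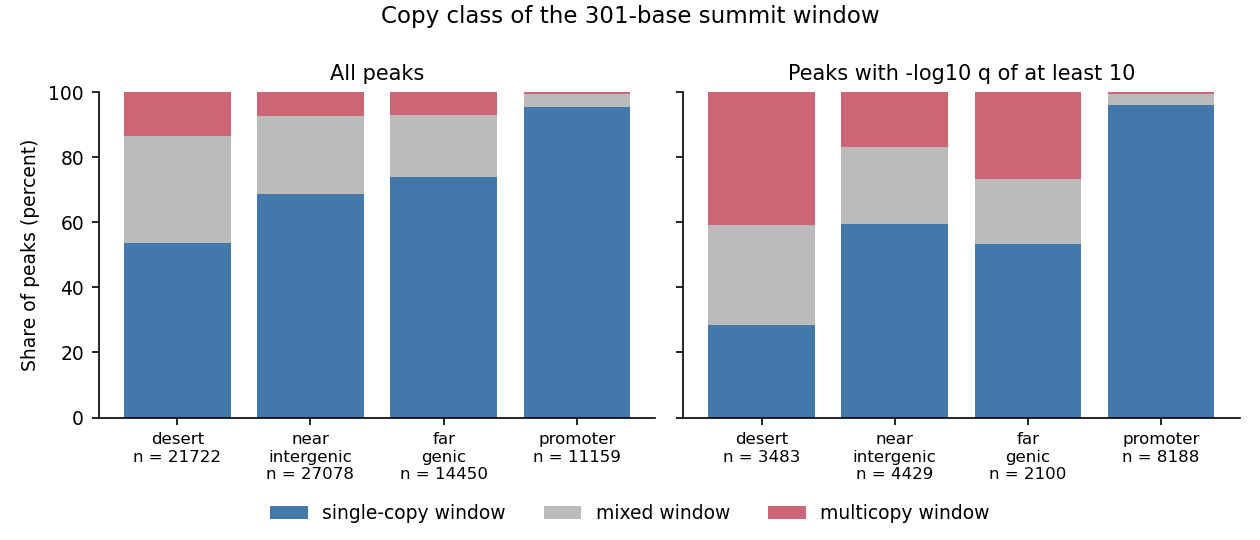
Share of peaks (y, percent) whose summit window is single-copy, mixed or multicopy, for all peaks (left) and for peaks with a −log10 q of at least 10 (right), in the 4 classes of position (x, with the number of peaks). The multicopy part of the desert bar grows from 13.5% to 40.9% among strong peaks, and the promoter bars are over 95% single-copy in both panels.

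Multicopy and single-copy desert peaks differed in depth and base composition. Multicopy desert peaks had a median fold enrichment of 6.47, 15 fragments, 60.1% GC and 14 CpG dinucleotides in such a window. Single-copy desert peaks had medians of 3.57, 7 fragments, 46.2% GC and 2 CpG. All 2205342 non-overlapping windows of that length in deserts had a median of 39.2% GC and 1 CpG, so both lay above the desert sequence around them. The share of strong peaks fell from 48.7% in multicopy windows to 19.6%, 11.5% and 8.48% in windows with 10 to 50%, 50 to 90% and at least 90% of words found once.

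**Figure D2:**
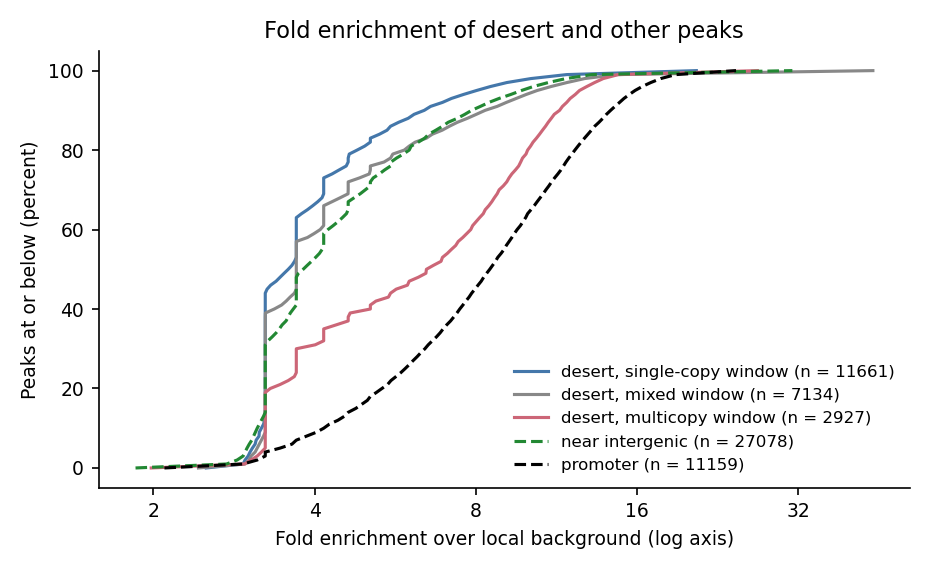
Cumulative share of peaks (y, percent) at or below each fold enrichment (x, log axis), for desert peaks in single-copy, mixed and multicopy windows (solid) and for near intergenic and promoter peaks (dashed). The multicopy curve, with a median of 6.47, lies between the single-copy curve (3.57) and the promoter curve (8.50), and the vertical steps are peaks of 6, 7, 8 and more whole fragments over the lowest background.

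A few shared words of 32 bases marked most strong multicopy desert peaks. Windows were grouped by the word of 32 bases held by most of them, then by the word held by most of those left. The words of the first 3 groups are shown because these groups held 1029 of the 1425 strong multicopy peaks (72.2%); capitals mark the YY1 motif.
Word 1: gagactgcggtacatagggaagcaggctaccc
Word 2: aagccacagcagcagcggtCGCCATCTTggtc
Word 3: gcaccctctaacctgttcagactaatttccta

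Word 1 lay in 643 desert peaks, of which 64.5% were strong, with a median fold enrichment of 7.59 (quartiles 6.01 and 8.74) and no YY1 motif. Word 2 lay in 618 peaks, of which 98.4% were strong, with a median of 10.5 (9.18 and 12.0); it spans the YY1 motif itself. Word 3 lay in 261 peaks with a median of 9.17, and 126 of them held the motif. On the opposite strand, word 3 differs at 1 base from a stretch of the 3 copies aligned above. In the copies that hold word 2, that stretch lies just after it, so words 2 and 3 can come from the same repeat. Each of the 3 words occurred on all 19 chromosomes. Among the windows left after these 3 groups, the word held by most was the dinucleotide repeat of A and C. It lay in 220 weaker peaks with a median of 3.24, of which 3.64% were strong. Word 1 was in 2.96% of desert peaks, 1.097% of near intergenic peaks, 1.39% of far genic peaks and no promoter peak, and word 2 in 2.85%, 1.005%, 1.65% and 1 promoter peak. The words were chosen because most desert peaks held them, so these shares are not an independent comparison of the classes. How often the words occur in the bases of each class was not counted. Repeat families were not annotated here, so these words are named only by their letters.

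The YY1 motif was common in multicopy desert peaks and nearly absent from single-copy ones. In all, 10 motifs were searched on both strands of each window: the POU octamer, the SOX-POU junction TTGTNATGC (whose ATGC can overlap the octamer), TCAAGGTCA for ESRRB, GGGTGTGGC for KLF factors, CAGGGGGC as the CTCF core, GCGCATGCG for NRF1, the YY1 motif, GATTNAATC for DUX, TGANTCA for AP-1 and GGTCTCTAA for PRDM14. The YY1 motif was in 54.1% of strong multicopy desert peaks (interval 51.5 to 56.7%) and 30.8% of all multicopy ones. It was in 3.03% of all peaks on chromosomes 1 to 19 and 0.375% of desert windows. Strong multicopy peaks elsewhere held it about as often, at 48.9% of near intergenic and 57.9% of far genic ones. Only 1 of 989 strong single-copy desert peaks held it (0.101%).

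The POU octamer, the SOX-POU junction and the ESRRB motif were more common in strong single-copy desert peaks than in desert sequence or at promoters, while the KLF motif was at a share near that at promoters. The POU octamer was in 9.20% of them (91 of 989; interval 7.55 to 11.2%), against 3.30% of all strong single-copy peaks on chromosomes 1 to 19, 3.31% of desert windows, 5.28% of strong single-copy near intergenic peaks, 7.06% of far genic ones and 1.35% of promoter ones. Weak single-copy desert peaks held it at 3.31%, which is the level of desert sequence. The SOX-POU junction was in 4.55% (0.847% of desert windows), against 2.202% of strong single-copy near intergenic peaks, 5.36% of far genic ones and 0.255% of promoter ones. The motif of ESRRB, an orphan nuclear receptor of the naive pluripotency network, was in 2.63% (0.463% of windows), against 1.21%, 1.52% and 0.216% in the same order. The KLF motif was in 2.02% (interval 1.31 to 3.10%; 0.263% of windows), against 2.28%, 2.77% and 1.71%. Over all strong single-copy peaks on chromosomes 1 to 19 the junction was in 1.53%, the ESRRB motif in 0.833% and the KLF motif in 2.10%. In all, 129 of the 989 desert peaks held the octamer or the junction, and 7 held both. The GC content of these peaks, at a median of 48.5%, was above the 39.2% of desert windows, and its part in the motif shares was not tested.

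Of the other motifs, AP-1 and the CTCF core were the most common in these peaks. AP-1 was in 14.5% of strong single-copy desert peaks, 12.8% of near intergenic ones, 12.8% of far genic ones and 3.30% of promoter ones. It was in 7.59% of all strong single-copy peaks on chromosomes 1 to 19 and in 9.04% of desert windows. The CTCF core was in 3.24% of the desert peaks and 0.365% of desert windows. Its share was 4.25% in near intergenic peaks, 3.57% in far genic peaks, 5.40% in promoter peaks and 4.80% over all strong single-copy peaks. NRF1, a factor of CpG-rich promoters, had its motif in 1 of the 989 (0.101%), in 3.41% of strong single-copy promoter peaks and in 0.0214% of desert windows. The DUX motif was in 5 of the 989 (0.506%, interval 0.216 to 1.18%), against 0.395% of desert windows. The PRDM14 motif was in 3 of the 989 (0.303%, interval 0.103 to 0.888%), against 0.180% of desert windows. Over all strong single-copy peaks on chromosomes 1 to 19 the NRF1 motif was in 1.85%, the DUX motif in 0.179% and the PRDM14 motif in 0.252%. In strong mixed windows the SOX-POU junction was the commoner of the POU motifs: 106 of 1069 strong mixed desert peaks (9.92%; interval 8.27 to 11.9%) held it, and 87 of 1048 near intergenic ones did (8.30%), while the octamer was in 4.12% and 3.63%. Over all 7134 mixed desert peaks the octamer was the commoner, at 4.11% against 2.73%.

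**Figure D3:**
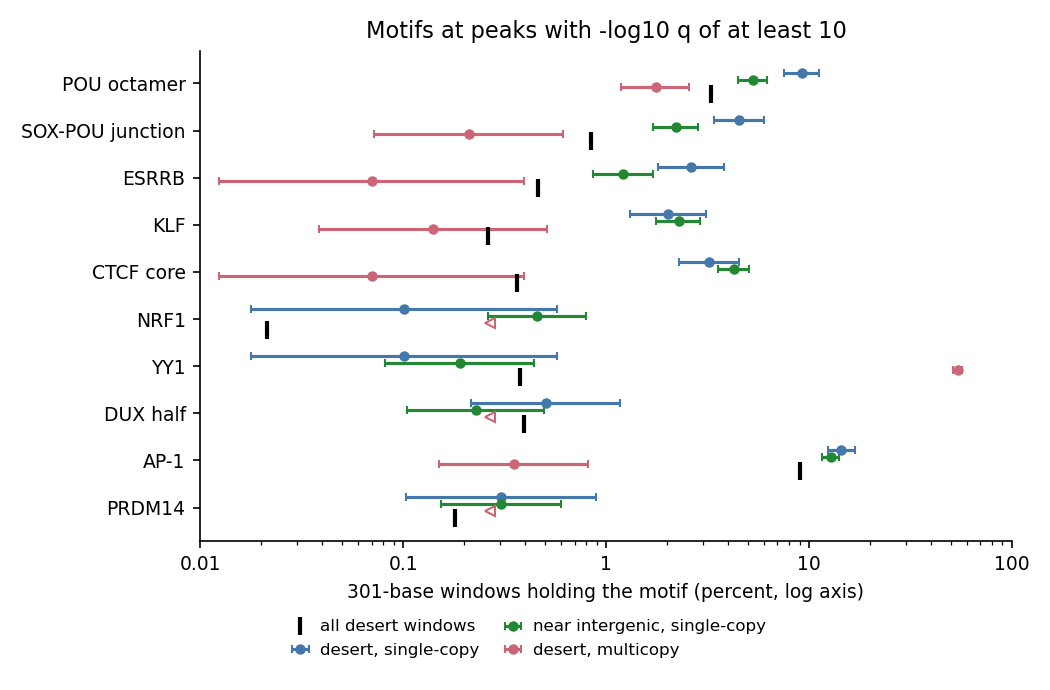
Share of windows (x, percent, log axis) that hold each of 10 motifs (y) among strong peaks: desert single-copy, near intergenic single-copy and desert multicopy, with 95% Wilson intervals, and all desert windows (black bars). Open triangles are upper limits where no window held the motif. YY1 stands at 54.1% in desert multicopy peaks and 0.101% in desert single-copy peaks, while the POU octamer stands at 9.20% and 5.28% in the desert and near intergenic single-copy peaks.

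The strongest single-copy desert peaks lay by genes of many functions. The highest had a fold enrichment of 20.7 and 149 fragments (exact 95% Poisson interval 126 to 175); it lies at chr6:149565525-149566537, 157 kb from the start of Bicd1, a dynein adaptor, and 0.199 kb upstream of the start of Gm21814, a long intergenic noncoding RNA gene. The next, at chr11:112501632-112502312, is 280 kb from Sox9, the transcription factor of cartilage and testis development, in the desert between Kcnj2 and Sox9; its fold enrichment was 19.5 with 76 fragments (59.9 to 95.1). A desert peak between Zeb1 and Arhgap12 had a fold enrichment of 18.1 and 92 fragments. The peak by Zfp804a, at chr2:81848725-81849356, had 18.01 and 84 fragments, and that by Cnr1, the cannabinoid receptor, at chr4:33823547-33824410, had 17.8 and 74 fragments. The Cnr1 peak is also 100.469 kb from that start, just inside the limit of the class.

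The other 5 of the 10 strongest single-copy peaks had fold enrichments of 16.9 to 17.5. Chromosome 13 holds 3 of them: by Vps41, a subunit of a vesicle tethering complex (chr13:18575529-18576380, 75 fragments), between Akr1e1 and Klf6 (chr13:4771115-4772001, 78 fragments), and between Tmem161b and Ccnh (chr13:84347924-84348765, 159 fragments). The summit of the Akr1e1 peak is 0.006 kb upstream of the start of Gm5444, also a long intergenic noncoding RNA gene, and the sequence shown for it holds 2 AP-1 motifs. The Tmem161b peak had 15 CpG, the most of the 10, at 57.1% GC. The last 2 are 255.7 kb from Med30, a Mediator subunit (chr15:52967585-52968364, 91 fragments), and 1596 kb from Pcdh7, a protocadherin (chr5:56121886-56122607, 52 fragments). The soft-masked share of the 10 was 4.77 to 32.6%, and the word at each summit occurs once in mm10.

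The 5 highest desert peaks of all were not single-copy. The first, chr5:60042723-60043202, had a fold enrichment of 44.1 from 1319 fragments over a background of 28.9, and 112 of its 270 words also occur in mitochondrial DNA. Only 3 desert peaks share any such word, and the other two had 18 and 14 fragments. The next 4, at fold enrichments of 22.3 to 26.9 and with 66 to 136 fragments, were 81.7 to 100% soft-masked, and their summit words had 365 to 3608 copies. They lie 724 kb from Zbbx, 159 kb from Lmbrd1, 526 kb from Trps1 and 151 kb from Dpp10.

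Few desert peaks had a summit near the start of a noncoding gene, which the class itself limits. Summits inside any gene are not members, so only those on the outer side of a start could be counted. The share for other peaks or for desert bases was not measured. A summit was within 500 bp of such a start for 285 desert peaks (1.31%), 122 of them at long intergenic noncoding RNAs and 77 at pseudogenes. The share was 3.44% of strong single-copy peaks (34 of 989; interval 2.47 to 4.77%), 1.12% of weak single-copy ones and 0.632% of strong multicopy ones. Windows rich in CpG were also a minority of strong single-copy peaks: 139 of 989 (14.1%) had at least 10 CpG, and 11 of these were near a noncoding start. The median number of CpG was 3 in strong single-copy desert peaks, 5 in near intergenic ones and 4 in far genic ones. It was 15 over all strong single-copy peaks on chromosomes 1 to 19. The share with at least 10 CpG was not computed for those classes.

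Intergenic peaks differed in make-up with their distance from genes, while the share of strong ones hardly moved. Per Mb of sequenced bases outside genes, peaks fell from 39.6 at 100 to 200 kb from a start to 32.5 at 200 to 500 kb, 27.2 at 500 to 1000 kb and 27.6 farther out. The share of strong peaks stayed between 15.9 and 16.2% in these 4 ranges. Strong single-copy peaks fell along the same ranges from 2.67 to 1.42, 0.725 and 0.451 per Mb, and stood at 5.05 per Mb at 10 to 50 kb. Strong multicopy peaks did not fall: they numbered 2.07, 2.22, 2.02 and 2.31 per Mb, against 1.41 at 10 to 50 kb. The median soft-masked share of a peak rose from 21.6% at 100 to 200 kb to 66.2% beyond 1000 kb. The pooled soft-masked share of the bases themselves, which is not a median, rose from 36.8 to 44.4%. The share of single-copy sequence among those bases was not measured.

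**Figure D4:**
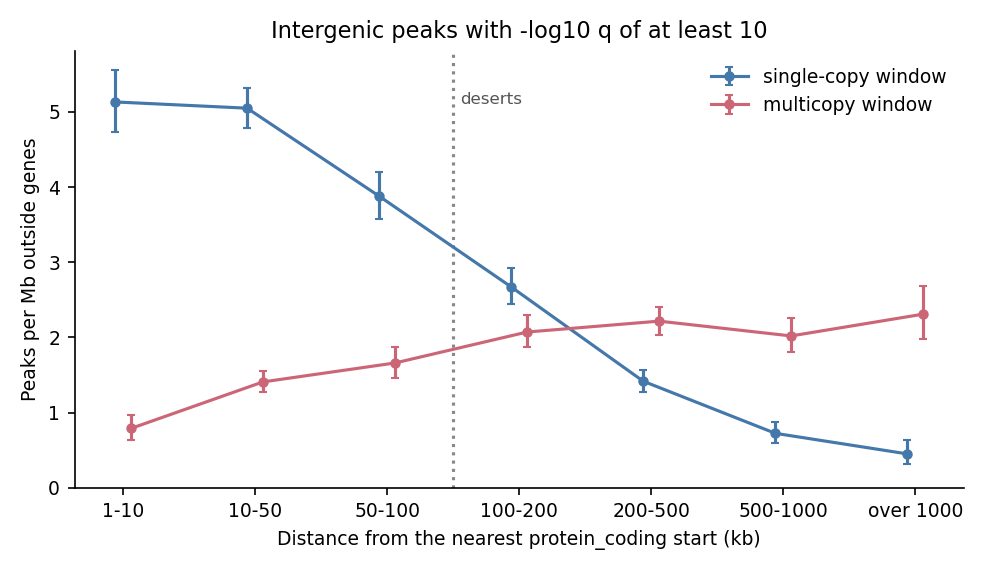
Strong intergenic peaks per Mb of sequenced bases outside genes (y) by distance from the nearest protein_coding start (x, kb), in single-copy and multicopy windows, with exact 95% Poisson intervals; bins right of the dotted line are deserts. Single-copy peaks fall from 5.05 per Mb at 10 to 50 kb to 0.451 beyond 1000 kb, and multicopy peaks lie between 2.02 and 2.31 in all 4 desert bins.

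Values just outside and just inside the limit of 100 kb were as follows. The 1096 intergenic peaks 90 to 100 kb from a start had a median fold enrichment of 3.70, 8 fragments, 19.6% soft-masked bases and 14.6% strong peaks. The 995 peaks at 100 to 110 kb had 3.70, 8 fragments, 22.2% and 17.2%.

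A desert was taken as an unbroken stretch over 100 kb from every protein_coding start and outside every protein_coding gene; noncoding genes may lie in it, though summits in them were not counted. There were 1851 deserts with 749.9 Mb of sequenced bases, which is 31.3% of chromosomes 1 to 19, and 28.97 desert peaks per Mb (32.7 per Mb outside all genes). A desert peak was found in 1556 of them, with a median of 5 peaks per desert. The 454 deserts of at least 500 kb had a median of 26.1 peaks per Mb (quartiles 19.2 and 33.9). The 10 deserts with most peaks held 6.44% of all desert peaks, and the 85 deserts with at least 50 peaks held 28.9%. No desert peak was found in 295 deserts.

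Of the 5 deserts with most peaks, 4 were on chromosome 8. The first, chr8:95988548-99024470, between the aspartate aminotransferase gene Got2 and the cadherin gene Cdh8, held 185 peaks, or 60.9 per Mb, of which 14 were strong. Its neighbour between Cdh8 and Cdh11, chr8:99516472-102632094, held 155 (13 strong). The desert between the bile acid transporter gene Slc10a2 and the ephrin gene Efnb2, chr8:5205352-8561241, held 156 (16 strong). That between the teneurin gene Tenm3 and Aga, chr8:48943952-53411726, also held 156 (14 strong) and was the widest of all, with 4.47 Mb sequenced. The fifth, chr1:140612068-143540663, between the potassium channel gene Kcnt2 and Cdc73, held 136 (17 strong). Median fold enrichment in these 5 ran from 3.24 to 3.44 and the median depth was 6 or 7 fragments.

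Counting strong peaks gave another order. The most, 22, were found in 3 deserts: Pcdh7 to G6pd2 on chromosome 5, which also held the most multicopy peaks (34 of 126), Cntnap5b to Cdh20 on chromosome 1 (100 peaks) and Pcdh20 to Pcdh9 on chromosome 14 (134 peaks). These deserts were chosen after their values were seen.

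**Figure D5:**
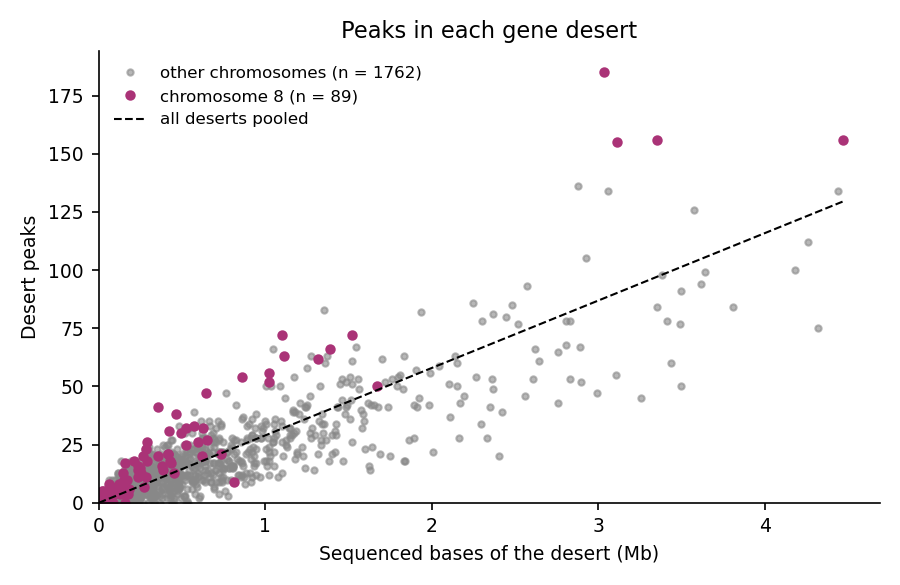
Number of desert peaks (y) against sequenced bases (x, Mb) for each of the 1851 deserts; chromosome 8 is in colour and the dashed line is the pooled 28.97 peaks per Mb. The 4 highest points of chromosome 8 are the deserts with 185, 156, 156 and 155 peaks, all above the line.

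By density, among deserts of at least 500 kb, the order was Pard3 to Nrp1 on chromosome 8 (72.7 peaks per Mb, 47 peaks), Syt1 to Nav3 on chromosome 10 (68.4, 39 peaks), Sall1 to Tox3 on chromosome 8 (65.3, 72 peaks), Camk1g to Plxna2 on chromosome 1 (63.0, 66 peaks) and Csmd1 to Mcph1 on chromosome 8 (62.8, 54 peaks). Sall1 is a zinc finger factor of the pluripotency network, and Nrp1 and Plxna2 encode semaphorin receptors. Multicopy windows were few there, from 0 to 3 of the peaks of each. The widest desert without a peak, chr7:38628194-39313159 between Gm5591 and Gm5114, has 0.535 Mb of sequenced bases.

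Chromosome 8 stood apart in number but less in strength. It held 58.2 desert peaks per Mb outside genes, against 20.3 (chromosome 19) to 39.4 (chromosome 13) on the others. Strong desert peaks came to 6.10 per Mb there and 3.27 to 6.68 elsewhere. Multicopy peaks were 9.03% of its desert peaks, below the 9.35 to 18.2% of the others, and its median fold enrichment was 3.41, while every other chromosome had 3.70. The mean local background of its peaks outside deserts was 2.42 fragments, against 1.84 to 2.07. That of its desert peaks was 1.54 fragments, within the 1.41 to 1.55 of the others. The background stood at its lowest level at 53.8% of all desert peaks, which limits how far this mean can differ between chromosomes. The number of copies of chromosome 8 in these clones was not examined. The part of the local background in the desert ranking was not tested. Without chromosome 8 the highest count was 136.

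Runs of closely spaced desert peaks were also counted, but the share that peak density alone would give was not computed. The median gap to the next desert peak was 20.6 kb (quartiles 8.68 and 47.6). Runs of at least 5, in which no gap was over 12.482 kb, numbered 252 and held 1497 peaks (6.89%); 64 were on chromosome 8. The longest, chr1:193477484-193551119 in the Camk1g to Plxna2 desert, had 14 peaks over 73.6 kb, of which 13 were single-copy and 6 strong.

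The share of genes nearest to a desert peak was higher in a list of developmental regulators than over all protein_coding genes. A gene was counted when its start was the nearest to a desert peak, which 2262 of 20780 protein_coding genes were (10.9%). Of 36 developmental regulators 24 were (66.7%), with 378 peaks, and of 22 pluripotency genes on chromosomes 1 to 19 10 were (45.5%), with 183 peaks. Only genes that border a desert can be counted this way, whatever their role, and 1556 of the 1851 deserts held a peak. How many genes of each list border a desert was not counted. These shares therefore cannot separate bordering a desert from having peaks in it. The genes nearest to most desert peaks were Cdh8 (158 peaks), Got2 (107), Slc10a2 (105) and Aga (105).

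Among the developmental regulators the strongest desert peaks lay by Sox9 (the single-copy peak shown above, 1 of 35), Nr2f1 and Irx1. Nr2f1 encodes an orphan nuclear receptor of neural development; its strongest peak, of fold enrichment 16.04 and 50 fragments, was 1222 kb away, fully soft-masked, multicopy and with the YY1 motif. Irx1 is a homeobox gene; its peak, of 14.6 and 61 fragments, was 290 kb away, with 22.6% of words found once. Nr2f2, a relative of Nr2f1, had 36 desert peaks, of which 3 were strong and single-copy. Irx3 had 12, with 3 strong and all 3 of these single-copy, and its highest (fold enrichment 11.6, 64 fragments, 120 kb away) held the POU octamer.

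Among the pluripotency genes the strongest desert peaks lay by Klf4, Klf5 and Nr5a2. The Klf4 peak (fold enrichment 13.9, 54 fragments, 334 kb away) was fully soft-masked and multicopy. The Klf5 peak (13.7, 64 fragments, 212 kb) was single-copy and 5.25% masked, and all 3 strong desert peaks of Klf5 were single-copy. The Nr5a2 peak (12.6, 111 fragments, 363 kb) had 26.7% of words found once. Sox2 had 22 desert peaks, 4 of the 5 strong ones single-copy, with the highest 145 kb away (10.9, 33 fragments). Mycn had 16, and its highest, 138 kb away (10.6, 35 fragments), held the POU octamer, as did that of Tfcp2l1, 149 kb away (8.86, 27 fragments). Zfp42 had 1, with 7 fragments. The distance to a start does not show which gene, if any, a peak acts on.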

How the data were processed

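ATAC-seq was performed on 2 clones of EHMT2-dTAG mESCs (50000 cells each, DMSO for 24 h), with several technical replicates per clone. Reads of these were pooled by the authors, trimmed with bbduk (BBMap) and aligned to mm10 with STAR 2.7.10, which wrote each multimapping read at 1 best location with ties broken at random. They removed duplicates with Picard 2.26.0 and ENCODE High Signal Regions with SAMtools 1.14, made fragments with bedtools 2.30.0, shifted them for the Tn5 cut, and called peaks at q under 0.05 with MACS2 2.2.6 on both clones merged. The deposited fold enrichment is a ratio of summit pileup to local background, and each deposited −log10 p-value or q-value belongs to a summit. The study annotated genes with another GENCODE release than the vM21 used here.

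From these, whole fragments over each summit were solved from fold enrichment and −log10 p (all 116777 peaks on the 21 chromosomes gave a whole number within 0.001 on the −log10 p scale; the solver was tested on simulated data). Read totals per clone are not in the list, so depth is known only as fragments over summits. Intervals (95%, Wilson for shares, exact Poisson for counts) cover counting error only. Sequence, soft-masking and counts of 32-base words came from the RefSeq GRCm38.p6 genome, of the same build as mm10. Masked letters there may differ from those of other mm10 copies. Coordinates are 1-based. Analyses used Python with NumPy, pandas, SciPy and Numba.

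The class, gene lists, motifs and markers were chosen with earlier results of these data known. Named peaks were the 10 single-copy desert peaks of highest fold enrichment, the 5 highest of all, the 3 highest on the commonest summit word (the first in alphabetical order of a tie), and for each gene list the 3 highest by its genes. Named deserts were the 5 with most peaks, the 5 densest of at least 500 kb, the widest and the widest without a peak; other peaks and deserts named were chosen after their values were seen. The alternatives tried are listed under the dependence on the processing.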

Additional observations from a re-analysis of the deposited data

Results flagged for a closer look

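Chromosome X was not part of the desert class, yet 713 of its peaks met the same rule, which is why it is given here. Of these, 37.9% were strong and 46.0% multicopy, with a median fold enrichment of 5.55 and a median soft-masked share of 95.5%. In its strong multicopy windows, 118 of 191 held the YY1 motif. On chromosome Y the rule found 2 peaks. The number of X chromosomes in these clones was not examined.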

How the results depend on the processing

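Medians of fold enrichment and depth and the share of strong peaks hardly moved with the distance limit or the gene set. Many desert peaks tie at the medians of 3.70 and 7 fragments, so overlapping sets could hardly give other medians. The number of desert peaks was 28802 and 14589 with limits of 50 and 200 kb, against 21722 at 100 kb. In all, 32 of 57 alternative values over 10 results stayed within 1.5 times (counts) or within the 95% interval of the value reported. The tied medians are among those that stayed. Restricting the class to peaks with a −log10 q of at least 10 left 3483 peaks at 4.64 per Mb, with a median fold enrichment of 9.13, 28 fragments and 81.4% soft-masked bases, and at most 22 in a desert. With limits of 50 and 200 kb the median soft-masked share was 30.0 and 45.2%, the density 30.9 and 26.98 per Mb, and the multicopy share of strong peaks 36.3 and 45.2%. Counting summits in noncoding genes gave 32.6% and 33.2 per Mb. Without chromosome 8 the density was 27.7 per Mb and 16.6% were strong; bases outside every gene as the denominator gave 32.7 per Mb. At a −log10 q of at least 5, 27.8% passed. When every annotated gene ended a desert, the highest count was 51. At a −log10 q of at least 20, the multicopy share was 51.3%, the YY1 share of multicopy peaks 76.3% and the POU octamer share of single-copy peaks 12.1%; with 50% of words found once as the limit for both classes these were 58.2, 45.9 and 7.42%. The alternatives on multicopy windows, motifs and the denominator were chosen after seeing the data. The cause of these moves was not tested beyond the alternatives' own construction.

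No paired analysis was possible because the list merges both clones. A summit of 6 fragments has wide counting error, and peaks under the call threshold are not in the list, so the number of weak desert peaks depends on depth and threshold.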
